A study of Drosophila simulans and Drosophila melanogaster and Drosophila sechellia with 48 samples.

Results

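Odorant binding proteins are small soluble proteins that support cells secrete into the fluid around insect sensory neurons. The set described here holds those best known from the antenna of Drosophila melanogaster, namely Obp83a, Obp83b, lush, Obp28a, Obp19d, Obp69a and Obp84a. Members were matched by gene symbol to the annotation of the array, and the set was chosen with earlier results of these data known. Of these 7 genes, 6 had a probe set, each had 1, and none of these probe sets was shared with another gene. Obp83a had none and was not analysed here. The 6 members were set against 12367 features in all, of which 10844 were named by 1 gene, and against the 30 other Obp genes and 53 odorant receptor genes that the array measured.

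RNA of whole males was hybridised to 48 Affymetrix arrays made for D. melanogaster, 3 for each of 16 groups. Each sample pooled 20 males, knocked down with CO2, that were 3 days past pupation and had been kept at 25 C in continuous light. The groups were D. santomea, D. yakuba and D. teissieri (the yakuba complex), D. sechellia, D. mauritiana, 10 crosses of D. simulans, and D. melanogaster (together the melanogaster complex). The 5 species other than D. simulans and D. melanogaster were each represented by a single line, so species and line cannot be told apart for them, and they were collected later. The D. melanogaster samples mixed 10 isogenic lines from a Californian population. The D. simulans crosses joined 10 isogenic lines of that population in a ring, each cross named by its parental lines (6X11, 11X36 and so on to 105X6). Collection therefore cannot be told apart from species between the earlier pair and the other species, and contrasts within 1 collection are given beside those that span both. The probes were designed on D. melanogaster sequence, so a weaker match of the probes and a lower transcript level cannot be told apart in the other species. In whole bodies, fewer antennal cells and less RNA per cell cannot be told apart either.

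In D. melanogaster, odorants enter an olfactory sensillum through pores in its cuticle and cross an aqueous lymph to reach receptors on the neuron. Odorant binding proteins are the most abundant proteins of that lymph, and each sensillum type carries its own set. They bind hydrophobic molecules, and at least one of them, lush, is needed for the normal response to the male pheromone cis-vaccenyl acetate. The genes lie in clusters in several parts of the genome, and many members of the family are also made outside the antenna. D. sechellia is known as a specialist on the fruit of Morinda citrifolia, whereas its close relatives D. simulans and D. mauritiana are not.

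Levels are given as log2 intensities after quantile normalisation, on which every array had a median of 7.75. Arrays carry no sequencing depth, and their number limits the precision. Transcripts of females were present on 2 arrays, the library labelled D. sechellia replicate 1 and the library labelled D. simulans 37X43 replicate 3, where the yolk protein gene Yp1 was at 15.48 or more, against 4.38 to 8.996 on the other arrays. In each species of the yakuba complex the array with the lowest mean correlation with its replicates was marked. These were replicate 2 of D. yakuba (0.661), replicate 2 of D. santomea (0.702) and replicate 3 of D. teissieri (0.793). Other arrays had values of 0.759 to 0.929, a range that includes D. teissieri replicate 3. The 3 arrays are called far from their replicates below, relative to their own species only. For the differences of the members that passed and for the gene lists, values or counts without the arrays named here are given beside the results or with the dependence on processing.

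The deposited values held no detection call, so 8 control probe sets for mouse and yeast transcripts served as a measure of background. Obp19d lay above the highest of these controls on all 48 arrays and Obp83b did so on 38. The other members were often not separated from the controls, with 18 of 48 arrays above the highest control for Obp28a, 15 for Obp69a, 10 for Obp84a and 5 for lush. The controls themselves differed between species. Their highest value averaged 8.08 in D. santomea, 8.02 in D. yakuba and 7.67 in D. teissieri, against 6.18 in D. sechellia, 6.53 in D. mauritiana, 6.56 in D. simulans and 5.90 in D. melanogaster. The part of this background in the differences below was not tested.

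**Figure D1:**
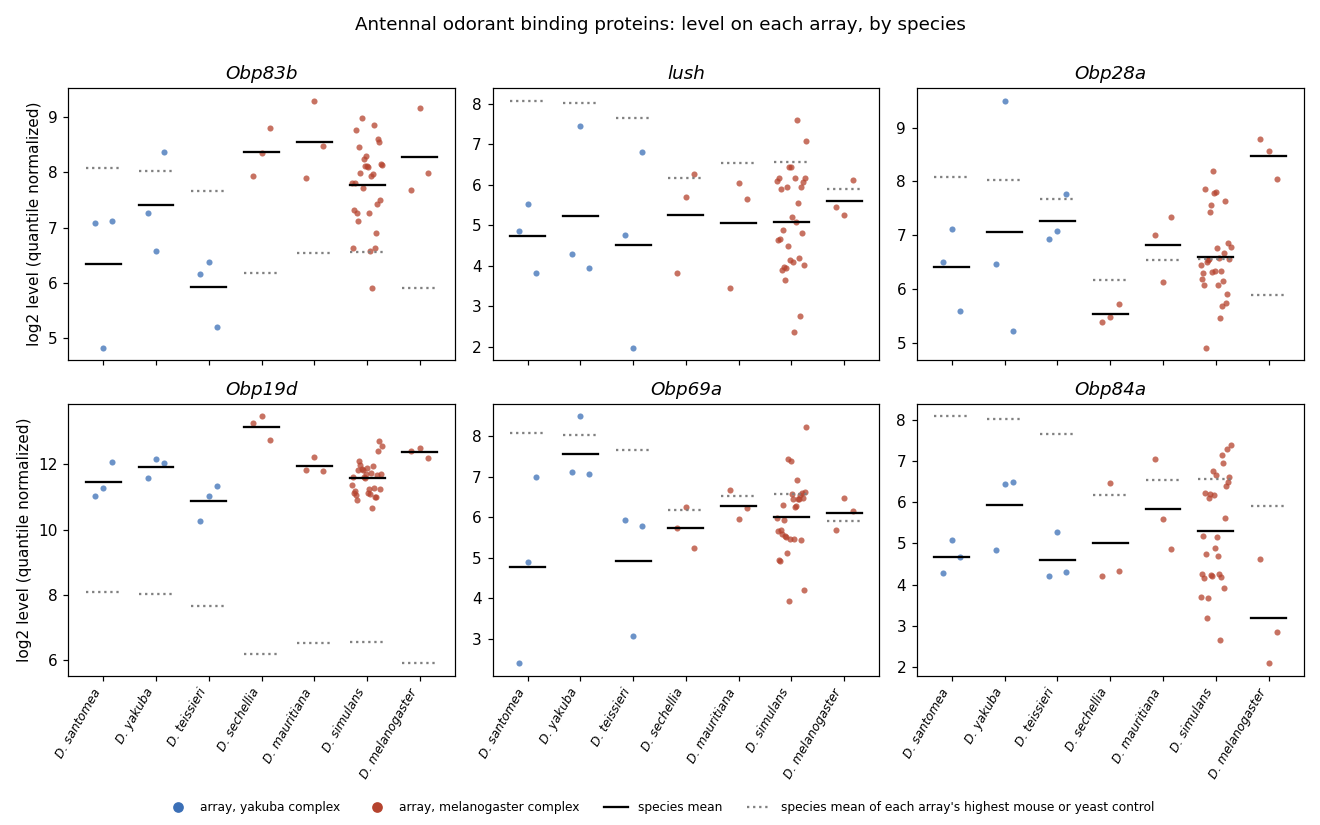
Log2 level (vertical axis, quantile normalised) of the 6 members on each of 48 arrays, grouped by species along the horizontal axis. Points are arrays (3 per species, 30 for D. simulans), black bars species means and dotted grey bars the species mean of the highest control on each array; D. sechellia stands highest for Obp19d, and the 3 species of the yakuba complex stand lowest for Obp83b.

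Transcript level varied among the 7 species for 4 of the 6 members at an adjusted p of 0.05, against 66.0% of all features. These were Obp19d (adjusted p = 4.81e-06), Obp83b (0.00113), Obp28a (0.0145) and Obp84a (0.0458). Obp69a (0.0733) and lush (0.961) did not pass. The call for Obp84a was lost in 22 of the 48 fits that left out 1 array, with an adjusted p of up to 0.245 without D. melanogaster replicate 2. Leaving out D. melanogaster replicate 1 or 2 ended the call for Obp28a (adjusted p of 0.0627 and 0.0502). Leaving out D. santomea replicate 3 brought Obp69a past the threshold (adjusted p = 0.0084), as did leaving out 99X105 replicate 1 (0.0377). Over the 21 pairs of species, 24 of the 126 tests on members passed, against 21.6% of those on all features. The species order differed from member to member, and none of the 36 neighbouring positions in these orders differed by the same test (background 2.90%), with 1 at an unadjusted p under 0.05.

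Obp19d encodes a binding protein that in D. melanogaster is made in the antenna and in other chemosensory organs. It varied most among the species by the F-test and had the tightest replicates of the set, with an SD within groups of 0.379 on the log2 scale against a median of 0.752 over all features. Its level was 13.29, 13.48 and 12.74 on the D. sechellia arrays, and 11.82, 12.23 and 11.79 on those of D. mauritiana. The 30 D. simulans arrays had a lowest value of 10.66, a median of 11.61 and a highest value of 12.72. All 3 D. sechellia arrays lay above every array of both relatives, the closest being D. simulans 85X99 replicate 3. D. sechellia exceeded the mean of D. simulans and D. mauritiana by 1.41 on the log2 scale (95% interval 0.865 to 1.95), a 2.65-fold difference (adjusted p = 0.000502). It was the only one of the 6 members to pass in this comparison, where 6.17% of all features did, and 3.87% of features had arrays that did not overlap. Without both arrays that carried female transcripts the difference was 1.34 (adjusted p = 0.0113).

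The contrast with D. mauritiana stays within the later collection. There Obp19d was 2.32-fold higher in D. sechellia (log2 difference 1.22, 95% interval 0.54 to 1.89, adjusted p = 0.0219), again alone among the 6 members (background 5.26%). This call rested on individual arrays. It was lost without D. sechellia replicate 1, the library with female transcripts (log2 difference 1.16, adjusted p = 0.0941), without D. sechellia replicate 2 (1.06, 0.142), and without D. mauritiana replicate 1 (1.15, 0.0873) or 3 (1.14, 0.0992). It was also lost when only arrays of the later collection entered the fit (adjusted p = 0.238 for the same difference). Obp28a moved the other way, with 5.38, 5.49 and 5.72 on the D. sechellia arrays against 7.01, 6.14 and 7.33 on the D. mauritiana arrays. These arrays did not overlap, as was so for 30.8% of all features in this contrast, and the difference of -1.30 did not pass (95% interval -2.71 to 0.12, adjusted p = 0.370).

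Against single species, the level of Obp19d in D. sechellia differed from that in 5 of the 6 others. The log2 differences were -1.71 for D. santomea minus D. sechellia (adjusted p = 0.000187), -1.24 for D. yakuba minus D. sechellia (0.00573) and -2.29 for D. teissieri minus D. sechellia (2.8e-06). D. sechellia minus D. simulans gave 1.60 (1.47e-05). The exception was D. melanogaster, whose arrays read 12.40, 12.52 and 12.20. All of these lay below the D. sechellia arrays, but the difference of 0.79 did not pass (95% interval 0.12 to 1.47, adjusted p = 0.0999). D. teissieri stood at the low end with 10.26, 11.02 and 11.34.

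Obp83b, known as OS-E, is made with its tandem neighbour Obp83a in trichoid sensilla of the D. melanogaster antenna. Whether its probes also bind transcripts of Obp83a is not shown by the values. On average Obp83b was lower in the yakuba complex. Its level was 7.08, 4.83 and 7.11 in D. santomea, 7.27, 6.58 and 8.38 in D. yakuba, and 6.17, 6.39 and 5.20 in D. teissieri. In the melanogaster complex it was 7.93, 8.35 and 8.80 in D. sechellia, 7.90, 9.30 and 8.47 in D. mauritiana and 7.69, 9.16 and 7.99 in D. melanogaster, and the D. simulans arrays ran from 5.90 through a median of 7.96 to 8.99. The complexes overlapped, since most arrays of the yakuba complex lay within the range of the D. simulans arrays. Only the D. santomea array at 4.83 and the D. teissieri array at 5.20 lay below it. D. yakuba replicate 3 also lay within the ranges of D. sechellia, D. mauritiana and D. melanogaster. Of the 21 species pairs 8 passed, each of them D. santomea or D. teissieri against a species of the melanogaster complex. D. yakuba was in none, and D. yakuba minus D. simulans gave -0.37 (95% interval -1.32 to 0.59, adjusted p = 0.574).

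The mean of the yakuba complex was 6.55 and that of the melanogaster complex 8.24, a log2 difference of -1.69 (95% interval -2.35 to -1.03, adjusted p = 5.2e-05). Within the later collection, the yakuba complex was lower than D. sechellia and D. mauritiana by a similar amount (-1.91, 95% interval -2.74 to -1.07, adjusted p = 0.000331). Obp19d was the other member that passed in both contrasts, at -0.84 (adjusted p = 0.000103) and -1.14 (6.53e-05). So 2 of the 6 members were lower in the yakuba complex in each contrast, where 49.8% and 39.3% of all features differed in either direction. Neither member had arrays without overlap, as 2.32% and 8.71% of features had. With the 3 arrays far from their replicates left out, the differences for Obp83b were -1.18 (adjusted p = 0.00441) and -1.40 (0.00633), and those for Obp19d were -0.93 (0.000137) and -1.22 (5.83e-05).

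The background controls ran the other way between the complexes. Their median over the 8 probe sets averaged 5.96 in the yakuba complex and 4.93 in the melanogaster complex. Obp83b was above the highest control on 1 D. yakuba array and on none of D. santomea or D. teissieri, but on 28 of 30 D. simulans arrays and on all arrays of D. sechellia, D. mauritiana and D. melanogaster. It was above the control median on all 3 D. yakuba arrays, and on 2 of 3 of D. santomea and of D. teissieri. The other 4 members did not pass in either contrast. Their differences between the complexes were -0.42 for lush (95% interval -1.50 to 0.65), 0.05 for Obp28a (-0.67 to 0.78), -0.29 for Obp69a (-1.19 to 0.61) and 0.23 for Obp84a (-0.65 to 1.11).

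**Figure D2:**
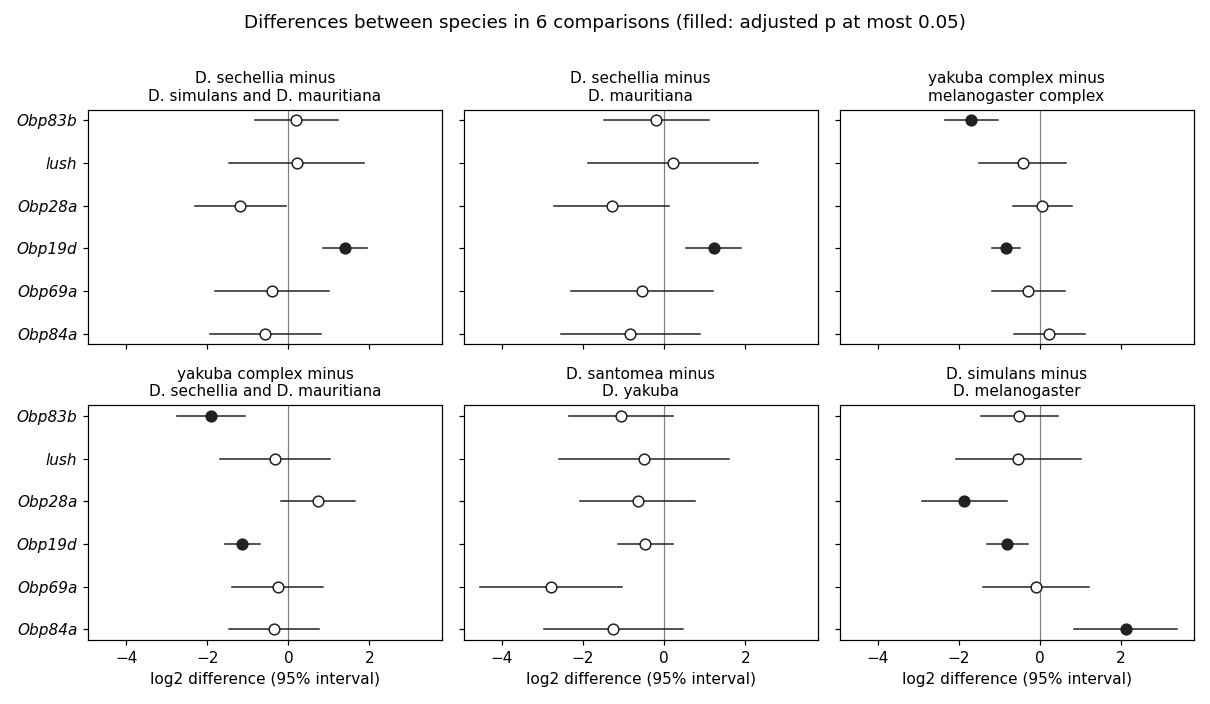
Log2 difference of the 6 members (rows) in 6 comparisons (panels), the first-named species or complex minus the second, with 95% intervals as lines and filled points where the adjusted p is at most 0.05. Obp19d differs in 5 of the 6 panels and lush in none.

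The gene lush, required in D. melanogaster for the response of trichoid neurons to cis-vaccenyl acetate, passed the test in none of the comparisons. Its species means lay between 4.51 ± 2.42 (SD, n = 3) in D. teissieri and 5.61 ± 0.45 (SD, n = 3) in D. melanogaster, and 0 of 21 species pairs passed (0 at an unadjusted p under 0.05). The replicates spread widely, from 1.98 to 6.80 in D. teissieri and from 2.36 to 7.60 over the D. simulans arrays, and the SD within groups was 1.32. With only 5 of 48 arrays above the highest control, the interval of D. simulans minus D. melanogaster ran from -2.08 to 1.02. The values were compatible with any difference of lush inside that interval.

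Obp28a, a binding protein abundant in basiconic sensilla of D. melanogaster, was highest in D. melanogaster. The 30 D. simulans arrays had a lowest value of 4.91, a median of 6.52 and a highest value of 8.19, against 8.80, 8.56 and 8.04 on the D. melanogaster arrays. The groups overlapped only at the top of the D. simulans range, where cross 43X61 replicate 1 exceeded the lowest D. melanogaster array. D. simulans was lower by a log2 difference of -1.87 (95% interval -2.92 to -0.82, adjusted p = 0.00915), so that D. melanogaster stood 3.65-fold above it. Both species were collected together from 1 population. D. sechellia (-2.94, adjusted p = 0.0028) and D. santomea (-2.06, 0.0205) were also below D. melanogaster, while D. yakuba replicate 2, one of the arrays far from its replicates, read 9.50 against 6.47 and 5.22 for its replicates. Obp28a was above the highest control on 3 of 3 D. melanogaster arrays, 12 of 30 of D. simulans, and 0 of 3 of D. sechellia and of D. santomea. The 3.65-fold difference is thus a ratio of array signals, and the part of background in it was not tested. The study's mask against D. yakuba took away most probes of the Obp28a probe set. Whether probe match has a part in its levels was not tested.

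Obp84a, a binding protein of coeloconic sensilla, read 2.66, 5.17 and 7.40 as lowest, median and highest of the D. simulans arrays, against 4.62, 2.09 and 2.85 on the D. melanogaster arrays. The fit gave D. simulans a level 2.12 higher (95% interval 0.85 to 3.39, adjusted p = 0.0145). D. yakuba minus D. melanogaster gave 2.74 (adjusted p = 0.0114) and D. mauritiana minus D. melanogaster 2.66 (0.0256). None of the 3 D. melanogaster arrays was above the highest control and 1 was above the control median, so Obp84a was not separable from background in this species and no fold is given. Above the highest control were 8 of the 30 D. simulans arrays. Raising all intensities under 32 to that value reduced the difference to 0.74 (adjusted p = 0.222).

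In all, 3 of the 6 members passed between D. simulans and D. melanogaster (background 19.2%), Obp28a and Obp84a as above and Obp19d, which was lower in D. simulans (log2 difference -0.80, 95% interval -1.31 to -0.30, adjusted p = 0.0191). No member had arrays without overlap here, as 8.23% of features had. Each of these calls rested on single D. melanogaster arrays. Without D. melanogaster replicate 2 the adjusted p was 0.0588 for Obp28a, 0.118 for Obp19d and 0.186 for Obp84a, without replicate 1 it was 0.0747 for Obp28a and 0.087 for Obp19d, and without replicate 3 it was 0.0858 for Obp84a. The differences then lay at -1.82, -0.73 and 1.57 without replicate 2. Under median scaling Obp19d reached an adjusted p of 0.0598.

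Obp69a, which in D. melanogaster is linked to the response to cis-vaccenyl acetate in social behaviour, was compared between the sister species D. santomea and D. yakuba at levels near background. Its level was 2.39, 4.89 and 6.99 in D. santomea and 7.10, 8.49 and 7.06 in D. yakuba, and these arrays did not overlap (as for 12.4% of all features). The difference of -2.79 (95% interval -4.55 to -1.04) fell just short of the threshold (adjusted p = 0.0515). None of the 6 members passed between these species by limma, with 1 at an unadjusted p under 0.05 (background 5.05%). The outcome turned on small changes of the fit. Leaving out D. santomea replicate 3 gave -3.91 (adjusted p = 0.00554), and leaving out the 3 arrays far from their replicates gave -2.39 (0.262). Only 1 D. yakuba array and no D. santomea array lay above the highest control. The other 5 members were also lower in D. santomea by value, from -0.47 for Obp19d (95% interval -1.15 to 0.21) to -1.25 for Obp84a (-2.96 to 0.46), without passing, and without the 3 arrays far from their replicates lush (0.22) and Obp28a (0.21) had the other sign.

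Among the 10 D. simulans crosses, none of the 6 members passed the F-test by limma (background 0.558%), with 2 at an unadjusted p under 0.05. These were Obp19d (adjusted p = 0.283) and Obp84a (0.329). Obp19d was highest in 85X99, at 11.69, 12.41 and 12.72, and lowest in 11X36, at 11.18, 11.05 and 10.92. The mean of 85X99 was 0.78 above that of the other 9 crosses (95% interval 0.27 to 1.28, adjusted p = 0.75). Obp84a was highest in 99X105, at 6.48, 6.61 and 7.40, and lowest in 6X11, at 4.27, 2.66 and 4.19. The cross 99X105 was 1.70 above the other 9 (95% interval 0.42 to 2.97, adjusted p = 0.216) and 6X11 was 1.78 below them (interval of the difference -3.05 to -0.50, adjusted p = 0.249). The highest controls on the 99X105 arrays were 7.29, 7.19 and 7.38, so only the Obp84a value of 7.40 exceeded them. On the 6X11 arrays they were 6.57, 6.01 and 7.25, above every Obp84a value of that cross.

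Of 60 tests of a member in 1 cross against the other 9, none passed by limma (background 0.131%), with 5 at an unadjusted p under 0.05. Cross means of the remaining members spanned 7.25 to 8.32 for Obp83b, 3.88 to 6.28 for lush, 6.13 to 7.43 for Obp28a and 5.39 to 6.48 for Obp69a. Neighbouring crosses in the ring share a parental line. For Obp84a, crosses that shared a line differed by 0.86 on average over 10 pairs, against 1.22 over all 45 pairs, and for Obp19d by 0.44 against 0.49. The values were 0.41 against 0.49 for Obp83b, 0.81 against 0.97 for lush and 0.37 against 0.50 for Obp28a. Obp69a went the other way, with 0.53 against 0.47. The 45 pairs include the 10 that share a line. The line shared by the highest crosses of Obp19d and Obp84a was 99, with a mean of 12.06 over its 2 crosses for Obp19d and 6.63 for Obp84a. This pattern was not tested, and for Obp84a it lies near background.

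**Figure D3:**
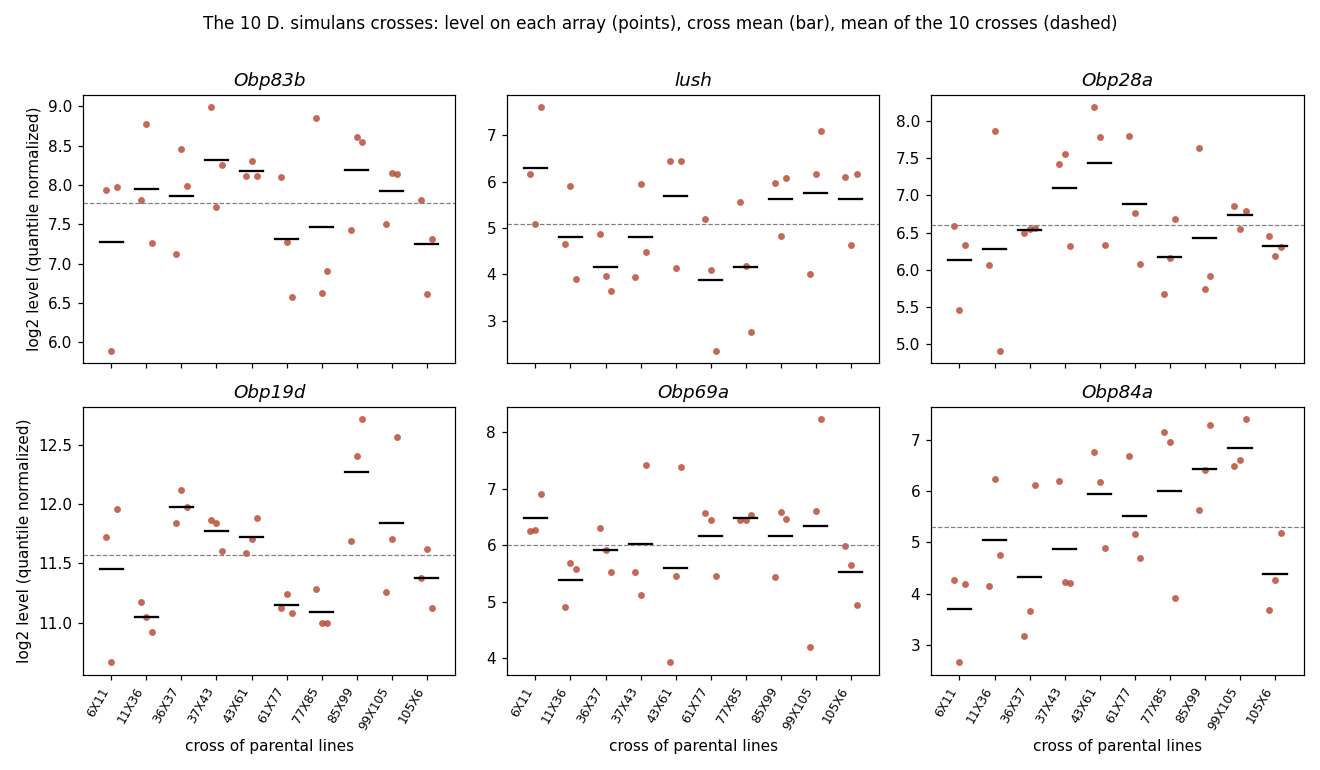
Log2 level (vertical axis, quantile normalised) of the 6 members on the 3 arrays of each D. simulans cross (horizontal axis, in the order of the ring of parental lines). Points are arrays, bars cross means and the dashed line the mean of the 10 crosses; Obp19d peaks in 85X99 and Obp84a in 99X105, and neither passed the test among crosses.

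The members did not move as 1 group. Over the 15 pairs of members, the correlation of species means (7 points) ran from -0.569 for Obp28a with Obp84a to 0.817 for Obp83b with lush, with a median of 0.293. Over the 10 cross means it ran from -0.245 to 0.627 with a median of 0.205, and Obp83b with Obp19d was the highest pair. Obp83b and Obp19d also had a coefficient of 0.787 over the species and 0.358 over the deviations of the 48 arrays from their group means. All these values share arrays and scaling and are given as a description.

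The named genes whose 16 group means most resembled those of a member were listed as a description, and none was listed for more than 1 member. They were Hsc70-5 (r = 0.903), CG7878 and Flacc for Obp83b, CG14069 (0.730), BomS2 and row for lush, CG16721 (0.838), Root and CG11977 for Obp28a, wal (0.844), CG14966 and AsnRS for Obp19d, AdoR (0.829), CG13850 and Srp54k for Obp69a, and aln (0.798), Psf1 and CG32485 for Obp84a. No other Obp gene and no odorant receptor gene was among them. Only the closest few of all named genes were listed for each member. The lack of shared genes, and of Obp or receptor genes, therefore cannot show whether these genes moved together.

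The 30 other Obp genes, a longer list than the 6 members, included in each of the 6 comparisons a larger difference than any member showed. In D. sechellia against D. simulans and D. mauritiana 3 were higher and 3 lower (background 6.17% in either direction). Obp19a was at 3.61 (adjusted p = 6.6e-05) and Obp56e at -6.41 (1.8e-15). Without both arrays that carried female transcripts, the same 6 passed. Obp19a lies in the same gene cluster as Obp19d. Within the later collection, D. sechellia against D. mauritiana gave 3 higher and 2 lower (background 5.26%), with Obp19a at 3.12 (adjusted p = 0.00683) and Obp56e at -6.39 (2.09e-12). Without D. mauritiana replicate 1 the count was 3 and Obp19a did not pass (2.58, adjusted p = 0.0712). In D. simulans against D. melanogaster 4 were higher and 4 lower (background 19.2%), with Obp58b at 5.99 (6.38e-13) and Obp56h at 3.01 (0.000147). Without D. melanogaster replicate 2 the count was 5 in all.

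Between the yakuba and melanogaster complexes, 7 of the 30 other Obp genes were higher and 10 lower (background 49.8% in either direction), with Obp99c at -2.28 (adjusted p = 6.67e-08) and Obp56d at -2.12 (9.64e-11). Within the later collection 4 were higher and 6 lower (background 39.3%), with Obp58b at 3.50 (adjusted p = 1.48e-09) and Obp99b at -2.41 (8.71e-08). In D. santomea against D. yakuba 1 was higher and 2 lower (background 5.05%), with Obp99b at 3.38 (2.68e-05) and Obp56e at -2.71 (0.00055). Without the 3 arrays far from their replicates these counts were 4 and 9, 1 and 8, and 2 and 2, and the 6 differences named kept direction and call. The median difference of the 6 members was -0.10 for D. sechellia against D. simulans and D. mauritiana, -0.37 against D. mauritiana, -0.36 between the complexes, -0.34 within the later collection, -0.86 for D. santomea against D. yakuba and -0.52 for D. simulans against D. melanogaster. Over all features it lay between 0.01 and 0.09 in these comparisons.

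**Figure D4:**
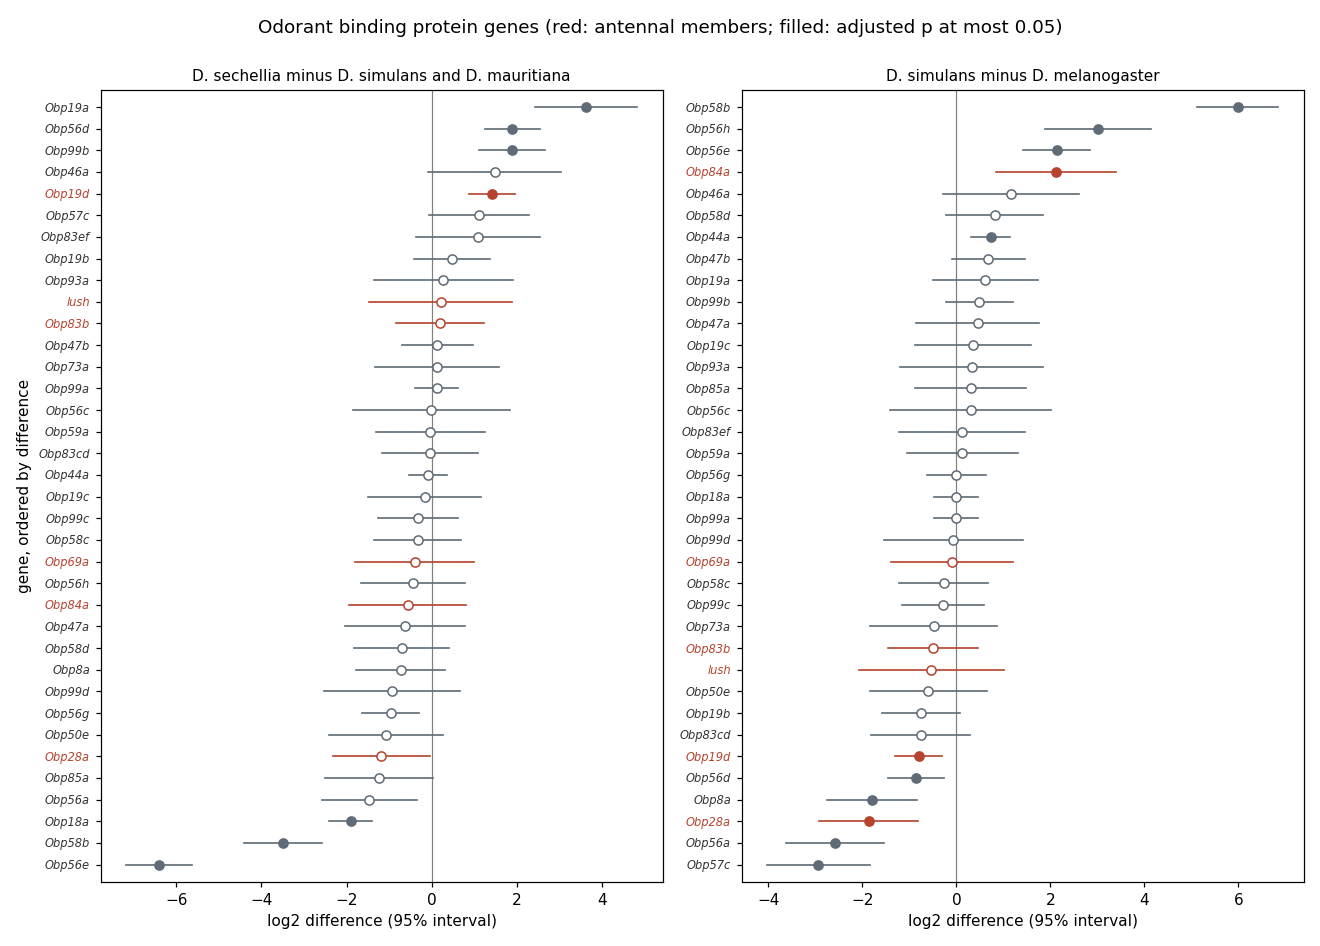
Log2 difference (horizontal axis, with 95% intervals) of all 36 measured odorant binding protein genes, ordered by value, in D. sechellia minus D. simulans and D. mauritiana (left) and D. simulans minus D. melanogaster (right). Red marks the 6 antennal members and filled points an adjusted p of at most 0.05; the extremes, Obp19a and Obp56e on the left and Obp58b and Obp57c on the right, are not antennal members.

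The receptor genes measured cover neurons of the antenna and of other organs. Of 53 odorant receptor genes, 22 were higher and 0 lower in the yakuba complex than in the melanogaster complex, against 25.3% and 24.5% of all features. Against D. sechellia and D. mauritiana 17 were higher and 0 lower, where 18.4% of all features were higher. Without the 3 arrays far from their replicates 15 and 10 were higher, of which 14 and 9 had passed before, and without the arrays carrying female transcripts 21 and 13 were higher. Or13a (2.21, adjusted p = 0.000135) and Or9a (1.97, 1.31e-07) led the first contrast, and Or45b (2.27, 0.000817) and Or13a (2.21, 0.00245) the second. The control probe sets also differed in this direction. The mean of the receptor list was 6.45 in D. santomea, 6.57 in D. yakuba and 6.30 in D. teissieri. It was 5.61 in D. sechellia, 5.74 in D. mauritiana, 5.73 in D. simulans and 5.34 in D. melanogaster. In every species it lay below the average of the highest control, although a mean of 53 genes and the highest of 8 controls are unlike measures. The part of background in these receptor differences was not tested. No receptor gene passed in D. sechellia against D. simulans and D. mauritiana (0 at an unadjusted p under 0.05) or against D. mauritiana alone (1) by limma. The background was 6.17% and 5.26%. The brightest, Or22c and Or46a, differed by -0.59 (adjusted p = 0.457) and -0.04 (0.972) in the wider of these comparisons. In D. santomea against D. yakuba Or43a alone passed (-2.98, 0.0029), where 5.05% of all features did. In D. simulans against D. melanogaster Or46a (3.30, 1.66e-09) and Or59b (1.72, 0.0155) alone passed, where 19.2% of all features did. Or59b lost its call without any 1 of the 3 D. melanogaster arrays (adjusted p of up to 0.0787).

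Of 9 antennal support genes listed, 7 were measured. Snmp1, a membrane protein of pheromone-sensing neurons, and a5, an antennal gene, were lower in the yakuba complex than in D. sechellia and D. mauritiana (-1.79, adjusted p = 0.00885, and -1.66, 0.0299). The call for a5 was lost in 4 of 48 fits without 1 array (adjusted p of up to 0.0742). Os-C, another gene first found in the antenna, was lower in the yakuba complex than in the melanogaster complex (-1.10, 0.041). Leaving out single arrays moved its adjusted p between 0.0115 and 0.139. Os-C alone of the 7 passed between the complexes, where 49.8% of all features differed in either direction and 24.5% were lower. The gene a10, which encodes a secreted chemosensory protein, went the other way between the complexes without passing (0.63, adjusted p = 0.0666). Leaving out single arrays moved the adjusted p of a10 between 0.0102 and 0.238. In D. simulans against D. melanogaster a10 was higher (1.63, 0.00448), but not without D. melanogaster replicate 1 (adjusted p = 0.0555). In the D. sechellia comparisons and between D. santomea and D. yakuba none of the 7 passed by limma (0 at an unadjusted p under 0.05). The background was 6.17% against D. simulans and D. mauritiana, 5.26% against D. mauritiana and 5.05% between D. santomea and D. yakuba. The brightest, a10 and Snmp2, differed by 0.29 (adjusted p = 0.812) and 0.31 (0.853) in D. sechellia against D. simulans and D. mauritiana.

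Marker genes of other tissues also differed between the species compared. In D. sechellia against D. simulans and D. mauritiana, where Obp19d was higher, 3 of 8 photoreceptor genes, 2 of 6 accessory gland genes and 2 of 3 fat body genes were lower and none was higher, against 3.39% of all features lower. Without the arrays carrying female transcripts 1 of each list was lower. Neuron genes (8 measured), testis genes (10) and genes of the female germ line and follicle cells (13) gave no call there by limma, with 1, 1 and 4 at an unadjusted p under 0.05.

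Between the yakuba and melanogaster complexes, where Obp83b and Obp19d were lower, 25.3% of all features were higher and 24.5% lower. Of 8 neuron genes 4 were higher and none lower, and of 8 photoreceptor genes 3 were higher and 3 lower. Of 6 accessory gland genes 5 were lower and none higher. Among 13 female germ line genes 4 were higher (9 without the arrays carrying female transcripts). Among 10 testis genes 1 was higher and 3 were lower, and 1 of 3 fat body genes was lower. The mean level of the neuron list ranged from 7.30 to 8.63 over the arrays of the yakuba complex and from 6.63 to 7.78 over those of the melanogaster complex. The part of these tissues in the differences of the members was not tested.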

How the data were processed

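Whole-male RNA of 7 Drosophila species was measured on 48 arrays with 14010 probe sets, 44 of them controls. The authors deposited intensity values on a linear scale, made with MAS5, whose trimmed mean was 500.0 on every array. The study's methods describe loess smoothing before MAS5 and a mask for probes that differ from D. yakuba. Whether either is in the deposited values is not stated, and the table holds all probe sets.

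Here 31 values below 1 were raised to 1, log2 was taken and arrays were quantile normalised, since deposited medians spanned 7.56 to 8.25. For each of 1209 genes with several probe sets the brightest was kept. Groups were compared with limma 3.58.1 in R 4.3.3 (lmFit and eBayes, 16 group means, D. simulans entering as the unweighted average over 10 crosses), with Benjamini-Hochberg adjustment over 12367 features and a threshold of 0.05. The code was tested on simulated data. Replicates are separate samples of a group per the labels. The members and gene lists were chosen with earlier results of these data known. Named were all members, the 3 features most like each, and for each other list the 2 genes past the threshold with the largest difference, or the 2 brightest where none passed. The female marker list matched 13 of 15 genes. Alternatives covered scaling, floor, filter, probe set, model, block, samples and single arrays. Figures were drawn with matplotlib 3.10.9.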

Additional observations from a re-analysis of the deposited data

How the results depend on the processing

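Of the 9 called differences of single members, Obp83b and Obp19d between the complexes (both contrasts) and Obp19d in D. sechellia against D. simulans and D. mauritiana kept direction and call in every alternative run, the last with differences of 1.20 to 1.62 and an adjusted p of up to 0.0201. The count of members that passed in D. sechellia against D. mauritiana fell to 0 under median scaling, with the intensities as deposited, with 1 mean per species, with arrays of the same collection only, and without the arrays carrying female transcripts. For D. santomea against D. yakuba it reached 1 with a trended robust variance, with the replicate number as a block, with 1 mean per species and without those arrays, Obp69a being the member. Cyclic loess brought 1 neighbouring pair in the species orders past the threshold. Leaving out 1 array at a time moved the counts between 2 and 5 for variation among species, 0 and 1 for D. sechellia against D. mauritiana, D. santomea against D. yakuba and neighbouring pairs, 2 and 3 for the yakuba complex against D. sechellia and D. mauritiana, and 0 and 3 for D. simulans against D. melanogaster.

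No result that had passed was reversed in any alternative. Between the complexes Obp28a took -0.095 under cyclic loess and -0.56 without the 3 arrays far from their replicates, Obp84a took -0.20 under cyclic loess and -0.16 with a floor of 32, and Obp69a took 0.22 with that floor, and 0.26 against D. sechellia and D. mauritiana. Without the 3 arrays D. santomea minus D. yakuba was 0.22 for lush, 0.21 for Obp28a and -0.070 for Or22c. Without the arrays carrying female transcripts D. sechellia minus D. mauritiana was 0.020 for Obp83b and 0.033 for Or46a, and Or46a took 0.052 against D. simulans and D. mauritiana. With the second brightest probe set Snmp2 took -0.0074, -0.26 and -1.59 (both D. sechellia comparisons and D. simulans against D. melanogaster) and Or46a 0.33 and 0.64, and with the intensities as deposited Or46a took 0.022 and 0.035 in the D. sechellia comparisons. Leaving out single arrays turned the sign of further results that had not passed. In D. sechellia against D. simulans and D. mauritiana the values ran from -0.022 to 0.41 for Obp83b, -0.30 to 0.92 for lush and -0.16 to 0.061 for Or46a, and against D. mauritiana alone from -0.52 to 0.18 for Obp83b, -0.58 to 0.94 for lush, -0.013 to 0.44 for a10, -0.15 to 0.43 for Snmp2 and -0.19 to 0.099 for Or46a. Between the complexes they ran from -0.35 to 0.36 for Obp28a and -0.66 to 0.10 for Obp69a, and within the later collection from -0.73 to 0.094 for lush, -0.64 to 0.13 for Obp69a and -0.60 to 0.0060 for Obp84a. D. santomea minus D. yakuba ran from -1.14 to 0.61 for lush and -1.58 to 0.56 for Obp28a, and D. simulans minus D. melanogaster from -0.31 to 0.093 for Obp69a and -0.036 to 0.57 for Snmp2. Causes were not tested.

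Equal replicate numbers did not mark shared material: 3 of 360 pairs of arrays had deviations correlated above 0.1. With the replicate block, the adjusted p for Obp84a among species was 0.0561 and for Obp69a between D. santomea and D. yakuba 0.0435, and no other call on a member changed. The split of all calls between D. simulans and D. melanogaster was 1247 higher and 1126 lower, and 866 and 1315 under cyclic loess. The median difference of all features between the complexes was 0.08, 0.13 under median scaling and 0.19 as deposited. The dim signal of lush, Obp84a and Obp69a, and of Obp28a on many arrays, limits what can be seen. The settings that left out the arrays with female transcripts or the 3 far arrays were chosen after seeing the data.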
